A study of Homo sapiens with 2 samples.

Results

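H3K4me3 peaks on human chromosomes 13 and 16 were compared between HEC-1-B cells, an established line of human uterine adenocarcinoma, and their ZNF143 knockout counterpart. All regions that the 2 deposited peak lists placed on these chromosomes were taken, which gave 1258 wild-type regions of 20567 in that list and 1312 knockout regions of 20509 in the other. Both chromosomes were selected on their median ratio of knockout to wild-type peak strength (column 9 of the lists), the highest of the 22 autosomes, so that ratio is described below and not tested. One chromatin immunoprecipitation sequencing (ChIP-seq) library represented each genotype, with the same antibody, cell line and culture protocol. The labels call the groups wild type and ZNF143KO, and no source used here says how the knockout was made or whether it is a single clone. Genotype, culture and library cannot be told apart in this design, and no difference below has a replicate check. Coordinates are hg19 positions counted from 1.

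H3K4me3 is a histone mark found at the promoters of active or poised genes, where it flanks the transcription start site. ZNF143 is a zinc-finger transcription factor that binds promoters directly through a long DNA element and is known from work on promoter contacts with distant enhancers. Chromosome 13 is acrocentric and has few genes for its size, whereas chromosome 16 carries genes densely on both arms. In the RefSeq gene table of GRCh38.p14, chromosome 13 has 338 protein-coding genes and chromosome 16 has 854. The wild-type list held 371 regions on chromosome 13 and 887 on chromosome 16, or 1.10 and 1.04 regions per protein-coding gene. The knockout list held 406 and 906 regions, or 1.201 and 1.06 per protein-coding gene. By this denominator the value of chromosome 13 was the highest of the 22 autosomes. It leaves out long non-coding RNA genes, which number 633 on chromosome 13, more than its protein-coding genes, and 625 on chromosome 16. That rank is therefore given for protein-coding genes only, and none is read from it for genes of all kinds. Because the gene table has another build than the peak lists, no region was assigned to a gene.

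The ZNF143 element is known to contain the letters ACTACA, then any 2 bases, then TCCC. RefSeq promoter sequences of GRCh38.p14, which run from 250 bases before to 50 bases after a gene's start, were searched for it on both strands. Of 299 protein-coding promoters on chromosome 13, 5 held the motif (1.67%, exact 95% interval 0.545 to 3.86%). Of 611 on chromosome 16, 28 held it (4.58%, 3.07 to 6.56%), and of all 15843 protein-coding promoters 449 held it (2.83%, 2.58 to 3.10%). The motif was thus found at a higher share of promoters on the gene-dense chromosome, with intervals that overlap. The sites below are all 4 distinct sites of chromosome 13 and the 3 sites of chromosome 16 that divergent neighbouring genes share. They are shown as the form that the known element takes on promoters of these chromosomes. Each is written 5′ to 3′ on the strand that reads ACTACA, with the motif in capitals.
CPAP, chromosome 13, a centriole assembly gene: cccagtgaaACTACAACTCCCagtgacgcc
UBL3, chromosome 13, a ubiquitin-like protein gene: ccctcgtagACTACACTTCCCgtgatgctc
HSPH1, chromosome 13, a chaperone gene: gcggccaggACTACACATCCCagcatgcaa
POGLUT2 and BIVM, chromosome 13: ctgtcgcgaACTACATATCCCagggagccc
NTHL1 and TSC2, chromosome 16, a DNA repair gene and an inhibitor of mTOR signalling: ctcctgcggACTACACATCCCggcggccca
HIRIP3 and INO80E, chromosome 16, genes of chromatin proteins: gccgtcaggACTACAACTCCCggcgtaccc
RPGRIP1L and FTO, chromosome 16, a cilium gene and an RNA demethylase gene: gtagaaaaaACTACAACTCCCaggatgcac
A match describes these letters and does not show binding. Promoters of both chromosomes were rich in CG pairs, with a median of 24 on chromosome 13, 27 on chromosome 16 and 22 in the whole table.

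The 2 chromosomes carried very different densities of peaks. On chromosome 13 the regions ran from 19174304 to 115080760, all beyond the peak-free start of this acrocentric chromosome. Their density was 3.87 per Mb of that span for wild type and 4.23 for the knockout. On chromosome 16 the densities were 9.84 and 10.1 per Mb. The median distance between neighbouring wild-type regions was 89.6 kb on chromosome 13 and 22.5 kb on chromosome 16. Stretches of at least 1 Mb without a region in either list numbered 25 on chromosome 13, with 42.3 Mb in all, and 14 on chromosome 16, with 34.5 Mb. The longest of chromosome 16, from 35284208 to 46386040, is the place of its centromere and was used to divide the arms. The short arm held 484 wild-type and 495 knockout regions, or 13.8 and 14.1 per Mb, and the long arm 403 and 411, or 9.20 and 9.38 per Mb.

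Peaks of both chromosomes covered more bases in the knockout list. The covered length on chromosome 13 was 0.353 Mb for wild type and 0.409 Mb for the knockout. On chromosome 16 the same lengths were 0.796 Mb and 0.908 Mb. Chromosome 13 had a median width of 897 bp for wild type and 968.5 bp for the knockout, and chromosome 16 had 870 bp and 986 bp. The knockout values were higher over all autosomes as well. There the covered length was 17.4 Mb for wild type and 19.3 Mb for the knockout, and the median width 888 bp and 1008 bp. Median widths thus differed more between the lists than between the chromosomes. The widest regions were similar too, with 2746 bp for wild type at chromosome 13 from 108518344 to 108521089, and 2543 bp at chromosome 16 from 28833592 to 28836134. The knockout partners of these 2 regions were 2602 bp and 2621 bp wide. The lists did not share a depth. The genome background rate, solved from the authors' columns, stood at 1.40 fragments at a position for wild type and at 3.25 for the knockout library, and its part in the wider peaks was not tested.

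Peaks of chromosome 16 were the stronger. Strength is given here as column 9 of the lists, the −log10 q-value of the summit, which is the authors' own value and grows with depth. Chromosome 13 had a median of 136 for wild type and 220.0 for the knockout, close to the autosomal medians of 139 and 248. On chromosome 16 it was 196 and 367. Each list was divided by column 9 into 4 equal classes, from 1 (weakest) to 4 (strongest). Class 4 took in 36.3% of the wild-type regions of chromosome 16 and 17.8% of those of chromosome 13. For the knockout these shares were 41.1% and 26.8%. The chromosomes were selected on the ratio of the same column, so a higher share of class 4 in the knockout list follows from that choice. At the weak end, class 1 took in 31.03% of the knockout regions of chromosome 13 and 22.8% of those of chromosome 16.

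The strongest region of each chromosome was the same in both lists. On chromosome 13 the highest column 9 was at 22177338 to 22178622, with 590 for wild type and 1183 for the knockout. On chromosome 16 it was at 15068097 to 15069957, with 778 and 1522, followed by 74401076 to 74402654, with 692 and 1395. Relative to the median autosomal pair, these 3 regions differed by 0.17, 0.13 and 0.17 on the log2 scale, close to the level of their chromosomes given next.

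To compare heights, regions with exactly 1 overlapping partner in each direction were paired, which gave 312 pairs on chromosome 13 and 745 on chromosome 16. The remaining shared regions, such as a knockout region that spans several wild-type regions, numbered 39 wild-type and 28 knockout on chromosome 13, and 104 and 58 on chromosome 16. For each pair, column 9 of the knockout region was divided by that of its wild-type partner, the log2 was taken, and the median over 15888 autosomal pairs was subtracted. A value of 0 on this scale is a raw ratio of 1.79. These are the values that chose the chromosomes. The median was 0.22 on chromosome 13, with quartiles of 0.02 and 0.42, and 0.18 on chromosome 16, with quartiles of −0.0018 and 0.35. The next autosome, chromosome 17, had 0.12. The raw ratio had a median of 2.08 on chromosome 13 and 2.02 on chromosome 16.

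**Figure D1:**
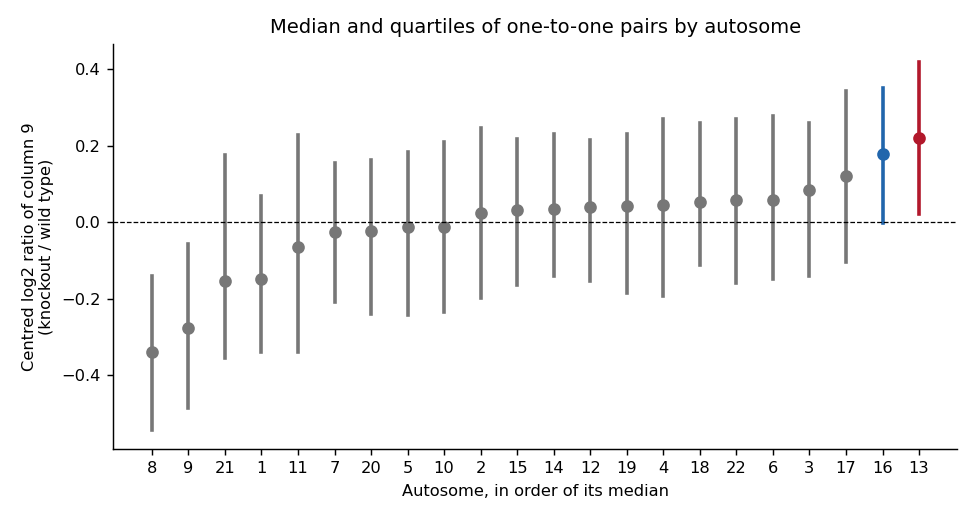
Centred log2 ratio of column 9 (knockout over wild type, y axis) for one-to-one pairs of each autosome (x axis, in order of the median). Points are medians and lines run between the quartiles, with chromosome 13 in red at 0.22 and chromosome 16 in blue at 0.18, beside the 20 other autosomes in grey.

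The higher level was spread over most pairs of each chromosome. Of the chromosome 13 pairs, 238 of 312 (76.3%) lay above 0, where 50.0% of all autosomal pairs lie by construction, and on chromosome 16 558 of 745 (74.9%) did. A log2 ratio above 0.5 was found for 65 pairs on chromosome 13 (20.8%) and 118 on chromosome 16 (15.8%), against 11.1% of all autosomal pairs. A ratio below −0.5 was found for 35 (11.2%) and 54 (7.25%), against 13.8%. The rule used this contrast, so nothing further is read from these counts. Of the chromosome 13 pairs above 0.5, 48 belonged to the 2 weaker of 4 equal strength classes of autosomal pairs, as did 34 of the 35 pairs below −0.5. On chromosome 16 these numbers were 94 of 118 and 48 of 54. Over all autosomes the 2 weaker classes held 88.1% of the pairs above 0.5 and 87.4% of those below −0.5, so large single differences were mostly at weak peaks genome-wide.

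The spread of the ratio narrowed from weak to strong peaks. The 4 strength classes divide the autosomal pairs by the mean of their members' percentiles in the 2 lists. In class 4, the strongest, chromosome 13 had a median of 0.21 with quartiles of 0.14 and 0.31 over 67 pairs. Chromosome 16 had 0.18 with quartiles of 0.10 and 0.27 over 289 pairs. The 20 other autosomes had 0.0035 with quartiles of −0.14 and 0.13 over 3616 pairs. In class 3 the medians were 0.26, 0.19 and −0.0061 in the same order, and in class 2 they were 0.31, 0.22 and 0.02. In class 1 they were −0.11 on chromosome 13 and 0.12 on chromosome 16, with quartiles over 1 unit apart, and −0.20 on the other autosomes. Chromosome 13 was thus above chromosome 16 in the 3 stronger classes and below it in the weakest. Among pairs with both members at or above the median of their own list, 157 of 169 (92.9%) on chromosome 13 and 390 of 460 (84.8%) on chromosome 16 lay above 0, against 52.6% on all autosomes.

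**Figure D2:**
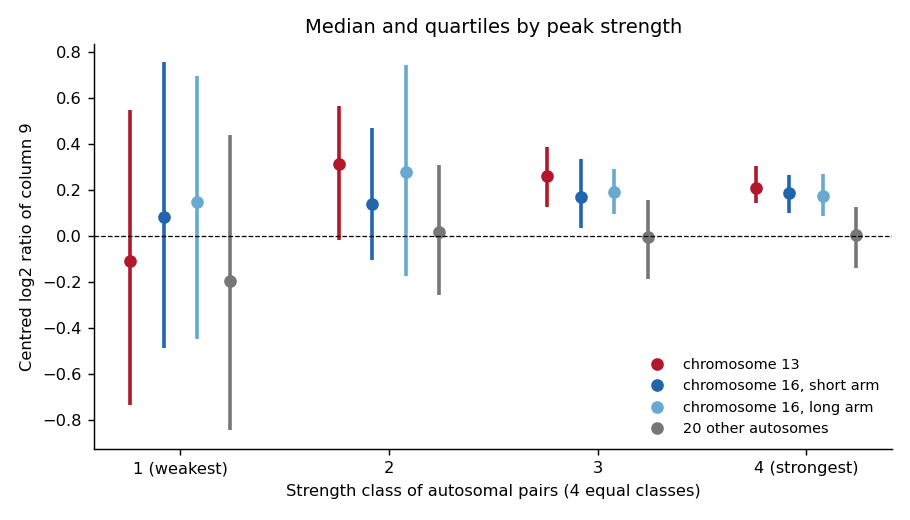
Centred log2 ratio of column 9 (y axis) by strength class of autosomal pairs, from 1 (weakest) to 4 (strongest) (x axis). Points are medians and lines run between the quartiles. In class 4 the medians are 0.21 on chromosome 13, 0.19 and 0.17 on the short and long arms of chromosome 16, and 0.0035 on the 20 other autosomes.

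Gene-poor chromosome 13 and gene-dense chromosome 16 were close in level. The medians differed by 0.04 on the log2 scale. Order-statistic 95% intervals, which cover counting error over pairs only, ran from 0.20 to 0.26 on chromosome 13 and from 0.16 to 0.20 on chromosome 16. The 2 arms of chromosome 16 had medians of 0.17 on the short arm, over 405 pairs (interval 0.14 to 0.21), and 0.19 on the long arm, over 340 pairs (0.16 to 0.21). The arms' intervals overlapped, and their order turned with the measure. By summit fragments the short arm had 0.175 and the long arm 0.166, and in strength class 4 they had 0.186 and 0.174. Without the 21 pairs of the cluster described below, the long arm's column 9 median was 0.1719, still just above the short arm's 0.1695. Among the stronger pairs both arms stood at 0.18, over 264 and 196 pairs. Pairs of 1 chromosome come from the same 2 libraries and are not replicates, so no test between chromosomes or arms was made.

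Other measures of the same pairs were then compared. The number of fragments stacked at the summit, as solved from columns 7 and 8, gave centred medians of 0.22 on chromosome 13 and 0.17 on chromosome 16. In raw terms the knockout summit held 2.16 times as many fragments as the wild-type summit on chromosome 13 and 2.09 times as many on chromosome 16, against 1.84 on the 20 other autosomes. The genome rate of the knockout library was 2.31 times that of wild type, above all of these summit ratios. A higher level here therefore means higher than on other autosomes, and not a gain over the genome rate. The local background rate was higher as well, by its median. Among pairs above the genome rate in both lists, the knockout rate was 2.32 times the wild-type rate on chromosome 13 (258 pairs) and 2.23 times on chromosome 16 (669 pairs), against 1.97 on the other autosomes. The fold column, which divides the summit by that rate, had medians of 0.01 and −0.00059. Pairs at the genome rate in either list or in both were fewer, 54 on chromosome 13 and 76 on chromosome 16. Their centred summit medians were −0.10 and −0.02, against −0.18 on the 20 other autosomes. The median summit and the median rate were thus both higher on these chromosomes than on other autosomes, while the fold was near that of other autosomes. Summit and rate were both solved from columns of the same peaks whose column 9 chose the chromosomes, so they are not separate evidence. The part of the background rate in the height of column 9 was not tested.

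Widths, which the rule did not use, differed less. The knockout region was the wider in 274 of 312 pairs on chromosome 13 (87.8%) and 648 of 745 on chromosome 16 (87.0%), against 82.1% of autosomal pairs. The median width ratio was 1.083 on chromosome 13, 1.072 on chromosome 16 and 1.063 on the 20 other autosomes. Among stronger pairs the ratios were 1.064, 1.052 and 1.050. Width and height come from the same pileup, so this is a description of the same peaks and not separate evidence.

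The level was next followed in windows of 5 Mb counted from position 1. Windows with at least 10 pairs numbered 13 on chromosome 13 and 16 on chromosome 16. All 13 and all 16 had a median above 0, against 52.2% of the 485 such windows on the autosomes. Every counted window lay above 0 on these 2 of the 22 autosomes, and the autosome next in ratio, chromosome 17, had 15 of 16 above 0, with a lowest value of −0.02. The windows hold the same pairs that chose the chromosomes, so high counts follow largely from the rule and nothing further is read from them. The window medians had an SD of 0.09 on chromosome 13, where the mildest window was 75 to 80 Mb at 0.13 and the highest 25 to 30 Mb at 0.44. On the short arm of chromosome 16 they had an SD of 0.02 over 7 windows, between 0.14 at 20 to 25 Mb and 0.22 at 25 to 30 Mb. On the long arm they ran from 0.06 at 50 to 55 Mb to 0.68 at 45 to 50 Mb over 9 windows, and the next highest was 0.21 at 75 to 80 Mb. The short arm was thus nearly level from end to end, and the long arm was level except for its first 2 windows.

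**Figure D3:**
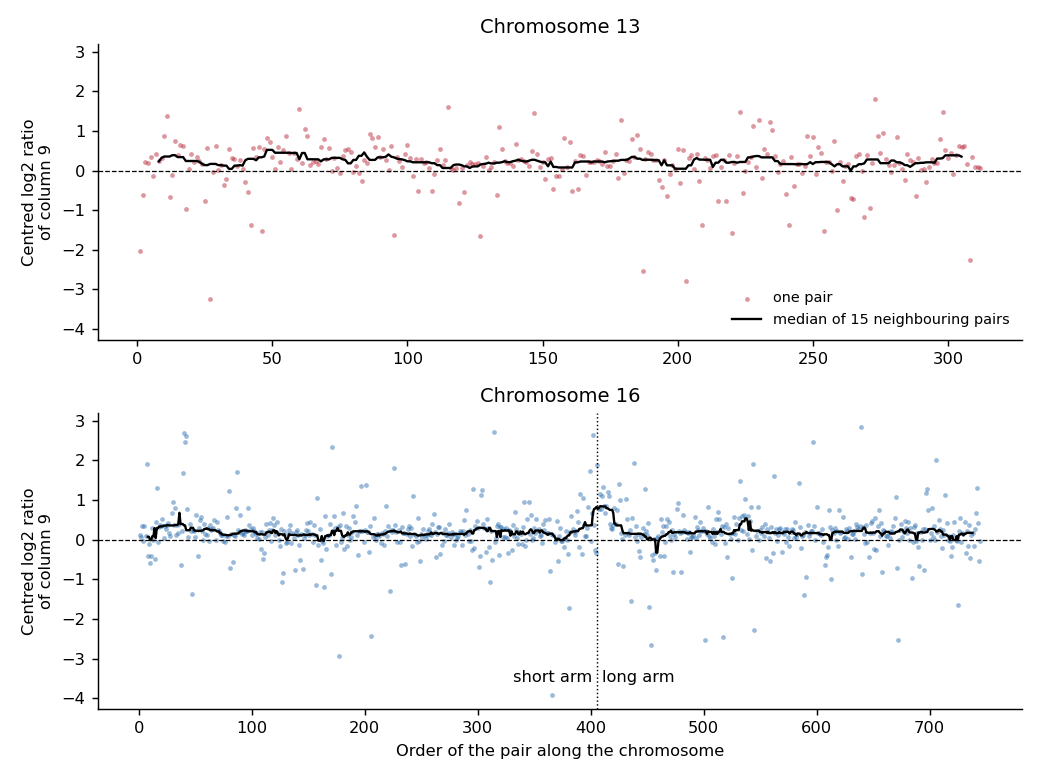
Centred log2 ratio of column 9 (y axis) for each one-to-one pair in its order along the chromosome (x axis), with 312 pairs on chromosome 13 and 745 on chromosome 16. The black line is the median of 15 neighbouring pairs, and the dotted line divides the arms of chromosome 16, where a short stretch of raised values follows.

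Within chromosome 13, peaks were unevenly placed. The window of 20 to 25 Mb held the most wild-type regions, 43, and that of 110 to 115 Mb the most knockout regions, 48. The windows from 55 to 70 Mb held 3 or 4 wild-type regions each, and the longest peak-free stretch between regions of this chromosome, from 67805948 to 72439329, began there. The window of 90 to 95 Mb held 4 wild-type and 9 knockout regions, of which 5 were unshared. The window of 25 to 30 Mb, with the highest median, had 21 of 25 pairs above 0 and its stronger pairs stood at 0.31 (12 pairs). The window of 35 to 40 Mb came next, at 0.35 with 14 of 15 pairs above 0, and its stronger pairs stood at 0.33 (7 pairs), above those of 25 to 30 Mb. The third highest by all pairs, 105 to 110 Mb, had 0.27, but its quartiles of −0.54 and 0.41 over 10 pairs left its level poorly fixed.

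Chromosome 16 was dominated by its first window. From the start of the chromosome to 5 Mb there were 197 wild-type and 197 knockout regions, the most of any wild-type window on the autosomes, covering 182 kb and 207 kb. The centred median there was 0.19 over 165 pairs, of which 127 lay above 0. The next densest windows were 30 to 35 Mb with 89 and 99 regions, 85 to 90 Mb with 82 and 88, and 65 to 70 Mb with 85 and 81. Their medians were 0.16, 0.18 and 0.20. The sparsest window with enough pairs, 90 to 95 Mb, had 0.14 over 10 pairs. This sparsest window lay near the lower end of the range of the short arm's windows. The window with the most peaks is itself on the short arm, so it cannot be set against that range.

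Covered length was larger in the knockout list in nearly every window, as on other autosomes. Knockout regions covered more bases than wild-type regions in 20 of the 21 windows with regions on chromosome 13 and in all 18 on chromosome 16, beside 94.5% of all autosomal windows. The exception was 55 to 60 Mb on chromosome 13, with 3 wild-type regions and 1 knockout region. The number of regions was higher in the knockout list in 12 of the 21 windows of chromosome 13 and in 7 of the 18 of chromosome 16, beside 33.9% of all autosomal windows.

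Chromosome 13 had a larger share of knockout regions without a wild-type partner than chromosome 16. On chromosome 13, 66 of 406 knockout regions overlapped no wild-type region (16.3%, exact 95% interval 12.8 to 20.2%), where the autosomal share was 9.61%. On chromosome 16 it was 103 of 906 (11.4%, 9.37 to 13.6%). Unshared wild-type regions were 20 of 371 on chromosome 13 (5.39%, 3.32 to 8.20%) and 38 of 887 on chromosome 16 (4.28%, 3.05 to 5.83%), against 5.56% on the autosomes. The intervals cover counting error only. The wild-type interval of each chromosome included the autosomal share. The knockout interval of chromosome 13 lay above the autosomal share, and that of chromosome 16 included it. The share of chromosome 13 was the highest of the 22 autosomes, followed by chromosome 21 with 14.0% (9.62 to 19.3%), whose interval overlapped it. The intervals of chromosomes 13 and 16 overlapped as well.

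These unshared knockout regions were weak. Their median percentile by column 9 in the knockout list was 5.59 on chromosome 13 and 8.16 on chromosome 16, and their median summits held 19 and 22 fragments. On chromosome 13, 65 of the 66 belonged to class 1 of the list, and on chromosome 16 98 of the 103 did. Within that class the unshared share was 51.6% (65 of 126, 42.5 to 60.6%) on chromosome 13 and 47.3% (98 of 207, 40.4 to 54.4%) on chromosome 16. Over all autosomes it was 36.9% (1730 of 4689, 35.5 to 38.3%). In class 2 it was 1 of 82 and 5 of 176. In class 3, 0 of 89 and 0 of 151 regions were unshared, with upper limits of 4.06% and 2.41%, and in class 4, 0 of 109 and 0 of 372, with upper limits of 3.33% and 0.987%. The unshared peaks thus came almost wholly from the weak end of the list, where a peak lies nearest the calling threshold.

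**Figure D4:**
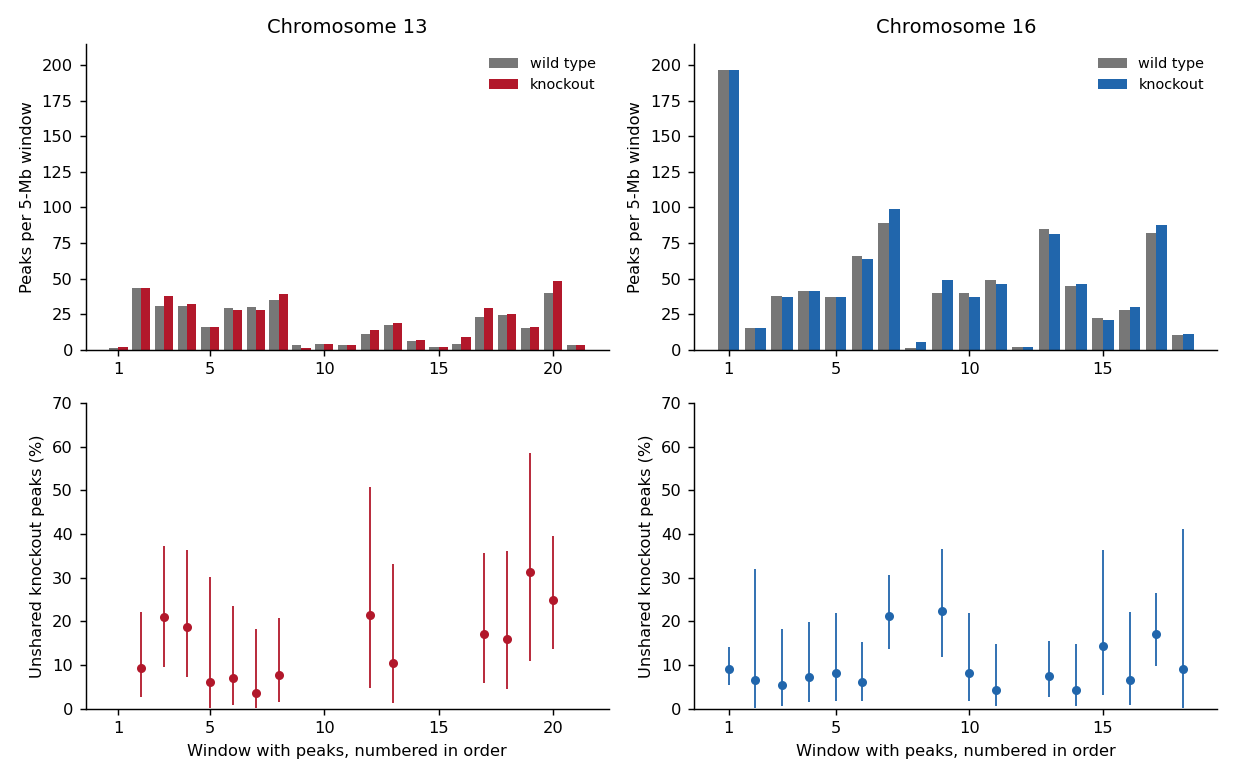
Regions per 5-Mb window in the wild-type list (grey) and the knockout list (red or blue), above, and the share of knockout regions without a wild-type overlap in windows with at least 10 pairs, below, with exact 95% intervals. Windows are numbered in order along each chromosome (x axis). The first window of chromosome 16 holds 197 regions in each list, and unshared shares are at most 31.3% on chromosome 13 and 22.4% on chromosome 16.

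Along chromosome 13 the unshared knockout share ran from 3.57% at 45 to 50 Mb (1 of 28) to 31.3% at 105 to 110 Mb (5 of 16, 11.02 to 58.7%). The last full window, 110 to 115 Mb, held 12 unshared regions among its 48 (exact 95% interval of the share 13.6 to 39.6%). On chromosome 16 the windows on either side of the peak-free stretch, from 30 to 50 Mb, held 37 unshared of 153 knockout regions (24.2%, 17.6 to 31.8%). The rest of the chromosome held 66 of 753 (8.76%, 6.84 to 11.02%). The windows from 30 to 50 Mb were set apart after their shares were seen, and the autosomal share keeps its own windows of this kind. Far from the centromere, the window of 85 to 90 Mb also had a share of 17.0% (15 of 88, 9.87 to 26.6%). The share was above 9.61% in 8 of 13 counted windows on chromosome 13 and in 4 of 16 on chromosome 16, beside 38.6% of the 485 on all autosomes.

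The strongest unshared regions were modest peaks. On chromosome 13 the knockout region of highest column 9 with no wild-type region within 1 kb was at 34726891 to 34727767, with a column 9 of 94.1 and 127 fragments at its summit. A wild-type region with no knockout region within 1 kb, at 34730063 to 34730701, lay a short way beyond it, with a column 9 of 12.7 and 20 fragments. The next on chromosome 13, at 28494081 to 28494543, had 35.5 in the knockout list. On chromosome 16 the highest was at 32897030 to 32897858, with 175 and 173 fragments, and the next at 85202973 to 85203587, with 54.2 and 63 fragments. Among wild-type regions, the highest was at 57728671 to 57729013 on chromosome 16, with 37.1 and 37 fragments, and on chromosome 13 at 59252336 to 59252518, with 18.4 and 23 fragments.

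The high window at the start of the long arm of chromosome 16 came from 1 cluster. Between 46386041 and 46435545, directly beyond the peak-free stretch, lay 23 wild-type and 30 knockout regions in 49.5 kb, of which 21 formed one-to-one pairs and 8 knockout regions were unshared. Pericentromeric DNA is rich in satellite repeats. The 21 pairs had a median centred ratio of 0.79, 20 of them lay above 0, and they ran from −0.60 to 1.89. Their summits held a median of 146 fragments for wild type and 500 for the knockout, a median raw ratio of 3.45. The 319 pairs of the rest of the long arm had 303 and 636 fragments, a raw ratio of 2.06 and a centred median of 0.17.

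The cluster also had a high background. Its local rate had a median of 62.8 fragments for wild type and 228 for the knockout, which is 44.7 and 70.2 times the genome rate of each library. On the rest of the long arm the rates were 20.1 and 46.1. The fold over that rate was 2.57 and 2.52 in the cluster, against 13.4 and 12.9 elsewhere on the arm. These peaks therefore stood little above surroundings that were themselves high in both libraries. The centred rate had a median of 0.87 and was nearly the same in all 21 pairs, from 0.78 to 0.95, while their column 9 ratios varied widely. Both medians were raised, and the part of the rate in the ratio was not tested. The 6 stronger pairs of the window of 45 to 50 Mb had a median of 0.14. Without the cluster's regions, all 16 counted windows of chromosome 16 still lay above 0 and the highest was 0.22.

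**Figure D5:**
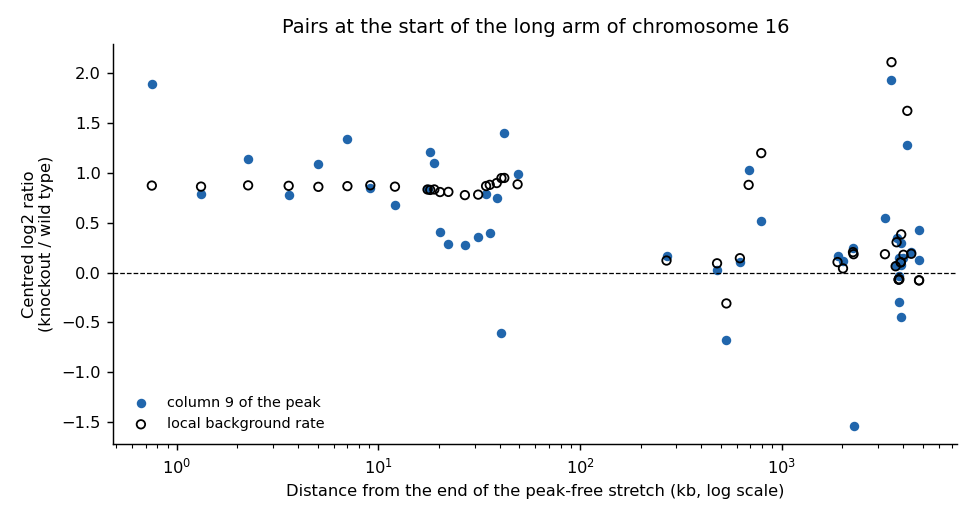
Centred log2 ratio (knockout over wild type, y axis) of column 9 and of the local background rate for pairs on the long arm of chromosome 16, by distance from the end of the peak-free stretch in kb (x axis, log scale). Pairs within 5 Mb of the stretch are shown. The 21 pairs of the cluster lie within 49.5 kb, with medians of 0.79 for column 9 and 0.87 for the rate. The 25 pairs shown beyond it have medians of 0.15 and 0.12.

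On chromosome 13 the stronger pairs lay between −0.51 and 0.88. Among pairs with both members at or above the median of their list, the highest ratio was at 27998232 to 27999549, where the summit held 205 fragments for wild type and 657 for the knockout (0.88). It was followed by 31038193 to 31039319, with 290 and 792 fragments (0.79). The lowest was at 41768057 to 41768756, with 262 and 380 fragments (−0.51).

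On chromosome 16 the stronger pairs lay between −1.71 and 0.82. The lowest was at 31119648 to 31120409, where the summit held 488 fragments for wild type and 275 for the knockout. It was lower in the knockout library even in raw fragments, although that library had the higher genome rate. At 4674765 to 4675854, with 580 and 511 fragments, the ratio was −1.14, and the local rates were 32.8 and 34.1. The highest was at 67875923 to 67876484, with 272 and 696 fragments, and the next at 2205749 to 2206620, with 324 and 889 (0.80). Over all pairs of the chromosome the lowest ratio, −3.93, was at 30786785 to 30787718, with 258 and 38 fragments. Its local rates were 14.6 and 3.25. That pair was singled out after its values were seen, and it is in strength class 2. With 1 library for each genotype, none of these differences can be set against a spread between replicates.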

How the data were processed

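For HEC-1-B cells, H3K4me3 ChIP-seq peak lists were deposited for 1 wild-type library and 1 library of ZNF143 knockout cells. The submitters' processing notes name Bowtie2, SAMtools 1.12, MACS2, deepTools and hg19 (GRCh37), without role or order, and settings and any control library are not given in the sources used here. The deposited columns hold, per the narrowPeak layout, a score, the fold (a ratio of summit to local background), the −log10 p-value and −log10 q-value of the summit, and its offset. Peak names show that the authors called each list separately.

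From these, overlaps (at least 1 bp), one-to-one pairs, centred log2 ratios of column 9 and 5-Mb windows (counted with at least 10 pairs) were computed in Python 3.11.15 with pandas 2.3.3 and SciPy 1.17.1. Summit fragments and local rates were solved from fold and −log10 p, assuming the fold is (n + 1) over (rate + 1) and p a Poisson tail. Library totals were not used here, so depth is known only through the genome rates of 1.40 and 3.25. Intervals of shares are exact Clopper-Pearson 95% intervals, and those of medians are order-statistic 95% intervals. They cover counting error only, and no test was made between genotypes. Tested on simulated data of 16500 pairs, chromosome medians were recovered within 0.022 on the log2 scale. The simulation scaled knockout summit and local rate by the same factor and held no knockout rate at the genome rate. It therefore does not cover pairs at that rate, or pairs whose summit and rate differ in ratio.

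The chromosomes, rules and lists were chosen with earlier results of these data known. Regions named singly were, for each chromosome, the strongest, the widest and the strongest unshared (none of the other list within 1 kb) of each list, and the highest and lowest ratios among stronger pairs. Windows named are those with extreme medians or counts, and others were chosen after their values were seen. Gene lists planned for an hg19 annotation, and a check of the ZNF143 locus, were not applied because the gene and promoter tables used are of GRCh38.p14. Alternatives were other columns, overlaps, thresholds, merging, windows and centring.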

Additional observations from a re-analysis of the deposited data

How the results depend on the processing

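No paired analysis was possible because wild type and knockout were sequenced once each, which also leaves no replicate to omit. Of the alternative values, 98 kept their direction and moved by less than the margin set for each, 26 moved by more and 2 reversed. Some of the 98 could not change, such as the arm medians when the boundary was moved within the peak-free stretch. Likewise, another centring could not change the difference between the chromosomes. Within its margin, the difference of the medians of chromosomes 13 and 16 fell from 0.04 to 0.01 with the fold column. With the fold column in place of column 9 the median ratio was 0.0124 on chromosome 13, −0.00059 on chromosome 16, 0.0015 on its short arm and −0.0020 on its long arm, and 8 of 16 windows of chromosome 16 lay above 0. Fold also gave 15 and 24 pairs above 0.5 and 11 and 17 below −0.5 (chromosome 13, then 16), of 312 and 745. Stronger pairs alone gave 14 and 22 above 0.5 and 1 and 6 below −0.5, from fewer pairs, 169 and 460. The summit pileup gave 15 and 25 below −0.5, of 312 and 745. No autosomal share by these measures is given here, so the counts are not read against a background. With 10-Mb windows all 8 and all 10 counted lay above 0, and with 2-Mb windows all 14 on chromosome 13 and 23 of 24 on chromosome 16. Merging regions within 1 kb gave median widths of 1134 and 1118 bp in wild type and 1194 and 1232 bp in the knockout. With a reciprocal overlap of 50% the unshared share was 23.2% and 17.9% in the knockout and 15.9% and 16.1% in wild type. On chromosome 16 the unshared knockout share was 8.50% when a region within 1 kb counted as shared and 8.76% without the windows beside the peak-free stretch, an alternative chosen after seeing the data. Its unshared wild-type share was 2.71% at a −log10 q of at least 5. Beyond what fewer pairs or regions account for, the cause of these shifts was not tested. Leaving out each 5-Mb window in turn, also added after seeing the data, gave medians of 0.22 to 0.23 on chromosome 13 and 0.17 to 0.18 on chromosome 16.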

Other observations

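Near the start of the short arm of chromosome 16, 4 neighbouring weak peaks were all much higher in the knockout list, a run chosen after its values were seen. They lay between 1047260 and 1141001, with centred log2 ratios of 1.68, 2.70, 2.47 and 2.63. Their summits held 22, 18, 11 and 16 fragments in wild type and 121, 196, 88 and 151 in the knockout. The regions were also wider in the knockout list, at 1021, 1645, 933 and 1315 bp against 581, 627, 213 and 871 bp. The local rate moved with them, from 1.40 to 7.29 at the first and from 1.62 to 16.7 at the second, and its part was not tested. The pairs on either side had ratios of 0.21 and 0.78. On the 22 autosomes there was 1 run of at least 4 neighbouring pairs above 1, which is this one, and on chromosome 13 the longest such run had 2 pairs.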
